A study of Mus musculus with 24 samples.

Results

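Epithelial and mesenchymal cells are told apart by their cadherins and by a small group of transcriptional repressors. The 10 genes described here, of 43626 with a row in any of the deposited tables, are the cadherin genes Cdh1, Cdh2 and Cdh11, the epithelial adhesion gene Epcam, the intermediate filament gene Vim, and the repressor genes Snai1, Snai2, Zeb1, Zeb2 and Twist1. They were found by their symbol in 4 comparison tables by a rule that uses no measured value, although earlier results of these data were known when the genes were picked. Each table sets Mof-depleted against control cells of the same type and treatment. The groups were MPC5 podocytes, a mouse glomerular podocyte line differentiated at passage 20, with a Mof knockdown or a scramble control, and mouse embryonic fibroblasts (MEFs) at passage 2, Mof knockout or wild type. Cells of each kind were given Adriamycin (doxorubicin, a topoisomerase II poison) for 24 h, at 0.25 µg/ml for podocytes and 0.1 µg/ml for MEFs, or vehicle (DMSO), which made 8 groups of 3 samples. How the knockout allele was made, how many clones or embryos were used and what delivered the knockdown are not recorded in the labels.

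E-cadherin (Cdh1) joins epithelial cells through catenins to the actin cytoskeleton, and N-cadherin (Cdh2) and cadherin-11 (Cdh11) do the same in many mesenchymal cells. SNAI1, SNAI2, ZEB1 and ZEB2 are zinc finger proteins that bind E-box DNA and repress Cdh1 and other epithelial genes, and TWIST1 is a basic helix-loop-helix factor that binds E-boxes with a partner E protein. Podocytes are epithelial cells that nevertheless contain much vimentin. MOF, the product of Kat8, is an acetyltransferase of histone H4.

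The SNAI and ZEB zinc fingers bind the E-box CAGGTG, which reads CACCTG on the other strand. Promoter sequences of RefSeq (GRCm38.p6) were at hand for 5 of the 10 genes, namely Epcam, Snai1, Twist1, Vim and Zeb2. Shown are the 250 bases before the start site of Epcam, an epithelial gene, at chr17:87635729-87635978 (+ strand), and of Snai1, a repressor gene, at chr2:167537945-167538194 (+ strand), with each CAGGTG or CACCTG in capitals. No annotated exon of GENCODE M21 lies in either window.
Epcam: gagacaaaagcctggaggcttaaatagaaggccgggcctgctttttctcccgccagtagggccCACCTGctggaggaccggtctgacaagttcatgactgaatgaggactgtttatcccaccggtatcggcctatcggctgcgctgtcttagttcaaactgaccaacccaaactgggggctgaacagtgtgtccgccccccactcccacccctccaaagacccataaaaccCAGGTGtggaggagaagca
Snai1: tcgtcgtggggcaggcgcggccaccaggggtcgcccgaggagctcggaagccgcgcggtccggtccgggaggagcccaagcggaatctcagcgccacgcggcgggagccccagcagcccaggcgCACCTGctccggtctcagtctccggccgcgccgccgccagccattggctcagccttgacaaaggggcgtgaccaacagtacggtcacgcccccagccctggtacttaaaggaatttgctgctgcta
The Epcam window held 2 matches and the Snai1 window 1, and the windows of Twist1, Vim and Zeb2 held 0. The windows shown are thus those that held a match. Of the windows not shown, that of Vim and some of those of Zeb2 overlap annotated exons, while that of Twist1 and the rest of Zeb2 overlap none. Over all 32851 promoters of this length, 17.2% held at least 1 match and 2.06% held 2 or more. A match describes these letters and does not show that a factor binds there.

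Values of single samples are absent from the tables, and the spread between the 3 samples of a group enters only through the standard error (SE) of each fold change, and library depth is unknown. Each mean normalized count below is a mean over the 6 samples of a table. Whether those 3 samples came from different cultures is not recorded, and the p-values therefore describe the spread among the samples at hand, possibly a technical one. Kat8 itself was at 42.3% of the scramble level in podocytes with Adriamycin and 35.6% with vehicle, and at 30.5% and 25.7% of the wild-type level in MEFs with Adriamycin and vehicle, from the fold changes of the authors' deposited tables. The direction of each table was read from this sign. Both MEF tables list all 10 genes, whereas the podocyte tables hold no gene with an adjusted p of 0.05 or more, out of 17184 tested with Adriamycin and 13876 with vehicle. The fibroblast genes Col1a1, Col1a2, Thy1, Pdgfra and Pdgfrb had mean normalized counts of 884 to 116732 in the Adriamycin table of MEFs and of 1353 to 180211 in the vehicle table. Among podocyte markers, Synpo, Podxl and Kirrel had mean normalized counts of 504 to 5516 in the podocyte tables, while the defining markers Nphs1 and Wt1 had no row there, so their level is not known.

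In podocytes given Adriamycin, Mof knockdown raised both mesenchymal cadherins and none of the other genes was listed. Cdh11 rose 7.33-fold and Cdh2 rose 1.87-fold. These 2 of the 10 genes passed the threshold, both higher; over all genes, 55.7% passed it in this comparison, 27.8% higher and 27.9% lower. A count of 2 of 10 is below the share over all tested genes, although not every 1 of the 10 need have been tested.

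Cdh11 (ENSMUSG00000031673, GRCm38 chromosome 8, 102632095 to 102785642, minus strand, protein coding) encodes cadherin-11, first known from osteoblasts and loose mesenchyme. Its mean normalized count in the authors' deposited table was 305, which the fold change splits into 536 in knockdown podocytes and 73.2 in scramble podocytes. On the log2 scale the authors' deposited table gives Cdh11 a fold change of 2.87 ± 0.15 (SE), a 95% interval of 2.59 to 3.16 and an adjusted p of 3.93e-83 from the DESeq2 run of the authors. By size, Cdh11 stood at rank 14 of the 4776 genes that rose in this comparison. No exon of another annotated gene overlaps an exon of Cdh11.

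Cdh2 (ENSMUSG00000024304, GRCm38 chromosome 18, 16588877 to 16809246, minus strand, protein coding) encodes N-cadherin, the main classical cadherin of neural and many mesenchymal cells. Its mean normalized count, 2168 in the authors' deposited table, splits into 2823 in knockdown podocytes and 1513 in scramble podocytes in the same way. Per kilobase of exon that makes 350 and 188 for Cdh2, against 60.2 and 8.22 for Cdh11 (knockdown, then scramble), so the more abundant N-cadherin changed less in fold terms. On the same scale the authors' deposited table gives Cdh2 0.90 ± 0.06 (SE), a 95% interval of 1.73-fold to 2.01-fold and an adjusted p of 2.07e-58 from the DESeq2 run of the authors. Of the genes that rose, 30.1% had a larger fold than Cdh2. For scale, 10 of 12 reference genes were listed, 7 higher and 3 lower, with a median of 0.24. Of these, Actb stood at 1.12 ± 0.05 and Gusb at -0.99 ± 0.06 in the authors' deposited table. Changes of the size seen for Cdh2 thus also occurred among genes often used as references.

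Cdh1, Epcam, Vim, Snai1, Snai2, Zeb1, Zeb2 and Twist1 had no row in the Adriamycin table of podocytes, by symbol or by Ensembl identifier. The largest p that this table lists is 0.0278, which goes with an absolute Wald statistic of 2.20, so any of the 8 that was tested lay at that p or above. Whether each was tested or set aside for low counts, and how large its change was, cannot be read from the table. In particular, the table gives no level of Cdh1, so nothing is known here of the E-cadherin side in these podocytes.

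Other cell types were checked beside the rise of the cadherins. Of the 9 leukocyte markers, Csf1r rose by 2.65 ± 0.18 in the authors' deposited table and Cd68 stood at -0.47 ± 0.09, both past the threshold, and the other 7 were not listed. Of the 8 endothelial markers only Egfl7 was listed in the authors' deposited table, at 0.86 ± 0.31 with a mean normalized count of 34.5. Summed marker levels per group cannot be formed where unlisted genes have no value, and the part of other cells in the rise of Cdh11 and Cdh2 was not tested. In bulk RNA, more cells of a type and more RNA per cell cannot be told apart.

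**Figure D1:**
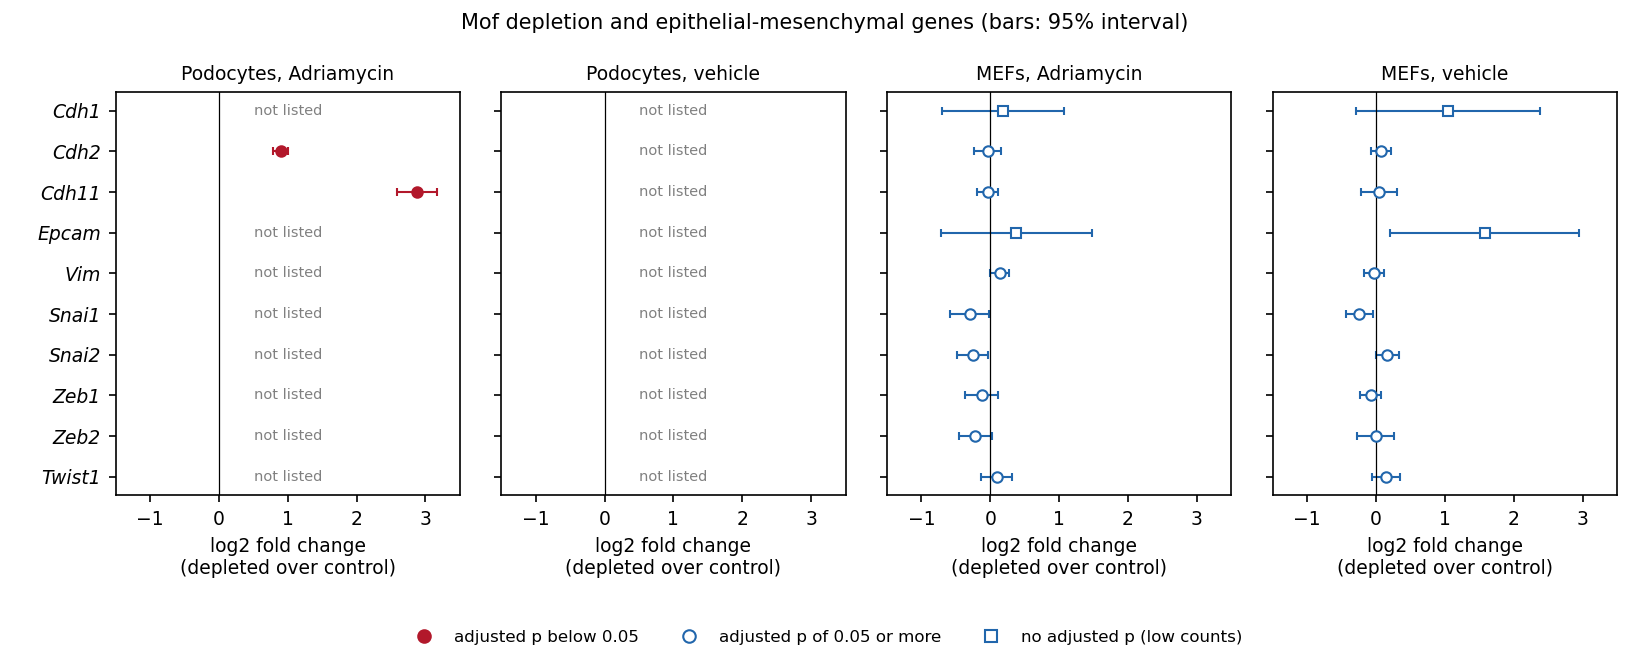
Log2 fold change (depleted over control, x axis) of the 10 genes in the 4 comparisons, one panel each, with 95% intervals. Filled red points passed an adjusted p of 0.05, open squares had no adjusted p, and genes without a row are marked as not listed; only Cdh11 (2.87) and Cdh2 (0.90) in podocytes given Adriamycin are filled.

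In podocytes given vehicle, none of the 10 genes was listed, so 0 passed in the DESeq2 run of the authors, against 14.3% of all tested genes (8.70% higher and 5.64% lower). The largest p listed there is 0.00717, at an absolute Wald statistic of 2.69. The count at an unadjusted p under 0.05 is not known, since unlisted genes carry no p. The effect on Cdh11 and Cdh2 with Adriamycin cannot be set against that with vehicle by a test, because the vehicle fold changes of both are not given.

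Other cadherins did pass under vehicle, and in podocytes the family moved as follows. Of 14 other cadherin genes, 3 rose and 1 fell with Adriamycin, and 4 rose and 0 fell with vehicle. Over all tested genes 55.7% passed with Adriamycin, a larger share than 4 of 14, and 14.3% with vehicle; genes that were not listed may or may not have been tested. Cdh16, the kidney-specific cadherin of tubular epithelium, rose with Adriamycin by 1.71 ± 0.10 and with vehicle by 1.64 ± 0.34 in the authors' deposited tables. P-cadherin (Cdh3), a classical cadherin of epithelia, rose by 0.63 ± 0.06 with Adriamycin and by 0.80 ± 0.15 with vehicle in the authors' deposited tables. Cdh24 rose by 0.77 ± 0.10 with Adriamycin and by 0.52 ± 0.16 with vehicle in the authors' deposited tables. Cdh24, and the vehicle value of Cdh16, were chosen after their values were seen. Centred on the median of the listed genes, 3 other cadherins were higher and 1 lower with Adriamycin, and 3 higher and 0 lower with vehicle. Centred on housekeeping genes, 3 were higher and 1 lower with Adriamycin, and 4 higher and 0 lower with vehicle. Both centres come from genes already past the threshold, so the balance under another scaling is not known.

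Cdh6, or K-cadherin, a cadherin of the developing kidney, went in opposite directions. It fell by 1.52 on the log2 scale with Adriamycin (-1.52 ± 0.10) and rose by 1.12 ± 0.17 with vehicle in the authors' deposited tables. Split by the fold change, the Cdh6 level with Adriamycin was 224 in knockdown podocytes and 641 in scramble podocytes, and with vehicle it was 573 in knockdown podocytes and 263 in scramble podocytes. Both values passed the threshold on their own, and the difference between drug conditions was not tested in podocytes.

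In MEFs, 2 of the 7 other cadherins tested with Adriamycin were higher and 0 lower, and 4 of the 10 tested with vehicle were higher and 1 lower. These shares lie near those over all tested genes, 32.7% with Adriamycin and 37.5% with vehicle. Centred on housekeeping genes, 1 was higher and 1 lower with Adriamycin, and 4 higher and 2 lower with vehicle. T-cadherin (Cdh13), which is anchored to the membrane by lipid, rose by 0.48 ± 0.15 with Adriamycin and 0.77 ± 0.18 with vehicle in the authors' deposited tables. R-cadherin (Cdh4), a close relative of N-cadherin, rose by 0.93 ± 0.27 with Adriamycin and 0.83 ± 0.25 with vehicle in the authors' deposited tables. Cdh3 stood at -0.36 ± 0.10 with vehicle in the authors' deposited table, past the threshold.

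**Figure D2:**
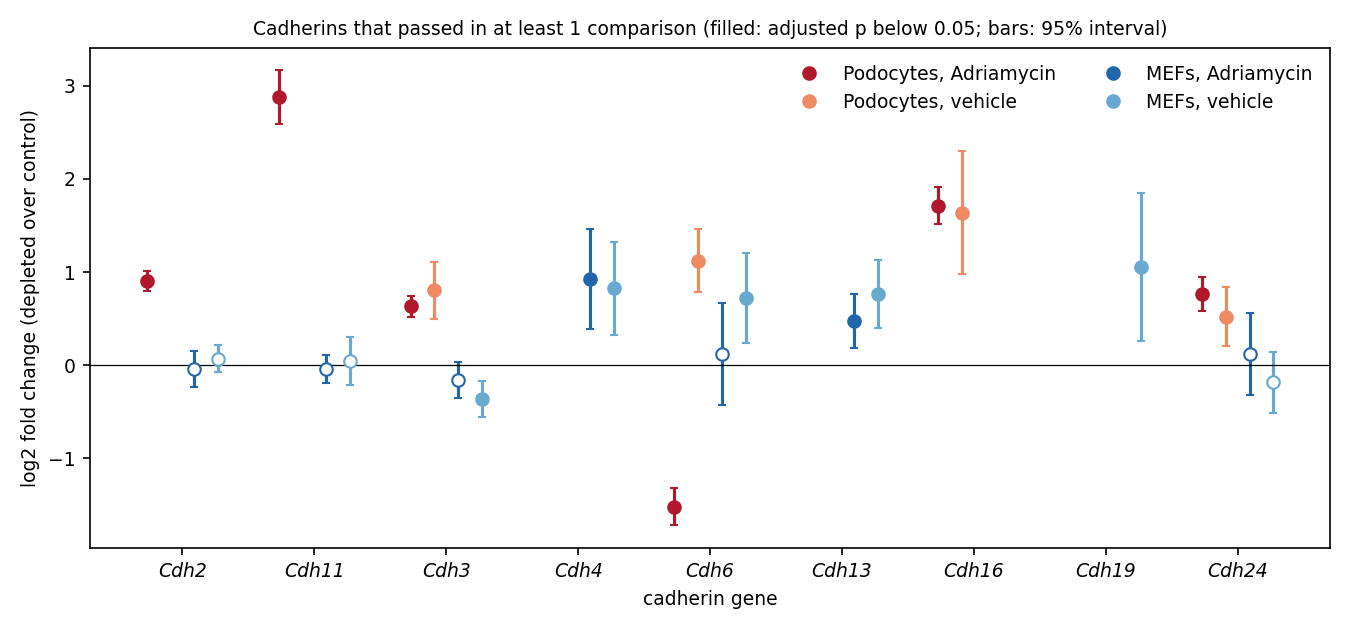
Log2 fold change (depleted over control, y axis) with 95% intervals for the 9 cadherin genes that passed in at least 1 comparison, in podocytes and MEFs with Adriamycin or vehicle; filled points passed an adjusted p of 0.05. Cdh11 and Cdh2 stand above 0 in podocytes given Adriamycin and near 0 in MEFs, and Cdh6 has values of -1.52 and 1.12 in the podocyte tables.

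In MEFs given Adriamycin, knockout of Mof left none of the 10 genes past the threshold. Of the 8 genes with an adjusted p, 0 passed in the DESeq2 run of the authors, against 32.7% of all tested genes (16.6% higher and 16.1% lower), and 2 had an unadjusted p under 0.05. Their log2 fold changes ran from -0.30 to 0.14, with a median of -0.08, against a median of -0.02 over all tested genes. Over the 8 genes, the 95% intervals reached no lower than 0.668-fold and no higher than 1.24-fold. Centred on the housekeeping genes, whose median was 0.20, 6 of the 8 passed instead, all lower: Snai1 (-0.50), Snai2 (-0.46), Zeb2 (-0.42), Zeb1 (-0.32), Cdh2 (-0.24) and Cdh11 (-0.24), with adjusted p from 0.00035 to 0.036. Over all 14139 tested genes, that centring called 6044, of which 4974 were lower and 1070 higher. Of the 12 housekeeping genes, 4 were themselves past the threshold as higher and 1 as lower. Centred on the median of all tested genes, the count stayed at 0. The count of 0 thus depends on the scaling chosen.

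In MEFs given vehicle the picture was close to this. Of the 8 genes with an adjusted p, 0 passed in the DESeq2 run of the authors, against 37.5% of all tested genes (17.8% higher and 19.6% lower), and 2 had an unadjusted p under 0.05. Log2 fold changes ran from -0.24 to 0.17 with a median of 0.02, against 0.01 over all tested genes, and the intervals spanned 0.737-fold to 1.28-fold.

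Among the cadherins of MEFs, Cdh11 was at -0.04 ± 0.08 with Adriamycin and 0.05 ± 0.13 with vehicle in the authors' deposited tables. Its level was 4809 in knockout and 4930 in wild-type MEFs with Adriamycin, and 11957 in knockout and 11563 in wild-type MEFs with vehicle, when the mean count is split by the fold change. Cdh2 was at -0.04 ± 0.10 with Adriamycin and 0.07 ± 0.07 with vehicle in the authors' deposited tables. Its split level was 3635 in knockout and 3731 in wild-type MEFs with Adriamycin, and 4790 in knockout and 4564 in wild-type MEFs with vehicle.

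Vim, whose product is the intermediate filament of mesenchymal cells, stood at 0.14 ± 0.07 (adjusted p 0.123, DESeq2) with Adriamycin and -0.02 ± 0.07 (adjusted p 0.847, DESeq2) with vehicle in the authors' deposited tables. With mean normalized counts of 106592 with Adriamycin and 111083 with vehicle, it had the highest level per kilobase of exon of the 10 genes in both tables.

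Snai1 and Snai2 had the smallest adjusted p of the 8 genes in both MEF tables. Snai1 (ENSMUSG00000042821, GRCm38 chromosome 2, 167538195 to 167542814, plus strand, protein coding) was at -0.30 ± 0.15 with Adriamycin (adjusted p 0.105, DESeq2) and at -0.24 ± 0.10 with vehicle (adjusted p 0.0514, DESeq2) in the authors' deposited tables. Its level was 796 in knockout and 977 in wild-type MEFs with Adriamycin, and 1328 in knockout and 1568 in wild-type MEFs with vehicle. The vehicle value is the nearest of all to the threshold: the adjusted p was 0.0473 when adjusted over genes at a mean count of 10 or more, and 0.0429 with fold changes centred on the median gene, and it ranged from 0.0116 to 1 over all alternatives.

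Snai2 (ENSMUSG00000022676, GRCm38 chromosome 16, 14705852 to 14709385, plus strand, protein coding), also called Slug, was at -0.25 ± 0.11 with Adriamycin (adjusted p 0.0697, DESeq2) and at 0.17 ± 0.08 with vehicle (adjusted p 0.103, DESeq2) in the authors' deposited tables. The split level of Snai2 was 827 in knockout and 986 in wild-type MEFs with Adriamycin, and 1214 in knockout and 1081 in wild-type MEFs with vehicle.

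Zeb1 was at -0.12 ± 0.12 with Adriamycin and -0.08 ± 0.08 with vehicle, and Zeb2 at -0.21 ± 0.12 with Adriamycin and -0.0019 ± 0.14 with vehicle, in the authors' deposited tables. Twist1, needed in mesoderm and skull sutures, was at 0.09 ± 0.11 with Adriamycin and 0.15 ± 0.11 with vehicle in the authors' deposited tables. The adjusted p of these 3 genes lay between 0.171 and 0.994 (DESeq2). Antisense or opposite-strand genes share exon sequence with Zeb1 (Gm10125) and Zeb2 (Zeb2os), and no source used here says that strand was counted, so reads of those pairs cannot be told apart.

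Cdh1 and Epcam were near the floor in MEFs and carried no adjusted p in either table. Cdh1 had mean normalized counts of 12.8 with Adriamycin and 3.82 with vehicle, and Epcam of 8.43 and 3.76, in the authors' deposited tables. The log2 fold change of Cdh1 was 0.18 ± 0.45 with Adriamycin (p 0.681) and 1.04 ± 0.68 with vehicle (p 0.127), unadjusted p-values of the DESeq2 run in the authors' deposited tables. That of Epcam was 0.38 ± 0.56 with Adriamycin (p 0.496) and 1.58 ± 0.70 with vehicle (p 0.0242), also unadjusted and from the DESeq2 run in the authors' deposited tables. Adjusted over every gene with a p, the vehicle values became 0.337 for Cdh1 and 0.0922 for Epcam. Neither gene passed after adjustment, at counts near 0.

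Set per kilobase of exon, the levels in MEFs given vehicle ran from Vim (23420 normalized counts per kilobase) through Cdh11 (1321), Snai1 (893), Cdh2 (580), Snai2 (568), Twist1 (501), Zeb1 (198) and Zeb2 (97.8) down to Epcam (1.71) and Cdh1 (0.834). With Adriamycin the order was Vim (22474 normalized counts per kilobase), Twist1 (763), Snai1 (547.0), Cdh11 (546.9), Cdh2 (457), Snai2 (449), Zeb1 (175), Zeb2 (67.9), Epcam (3.84) and Cdh1 (2.81). Without values per sample, neighbours in these orders cannot be tested against each other. The mesenchymal genes and all 5 repressors thus lay above Cdh1 and Epcam by more than an order of magnitude in each table. Vim ranked at the 99.9th percentile of protein-coding genes with a count in both tables, and Cdh1 at the 28.4th with Adriamycin and the 16.4th with vehicle.

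Levels of different tables were normalized separately by the authors and are set side by side with no test. The mean count of Cdh11 over knockout and wild-type MEFs was 4870 with Adriamycin and 11760 with vehicle, a ratio of 0.414, and 3.38% of the genes tested in both tables had a lower ratio. Snai1 had a ratio of 0.612, with a mean count of 887 with Adriamycin and 1448 with vehicle. Twist1 went the other way, as did Epcam (ratio 2.25) and Cdh1 (ratio 3.36), the last 2 at counts near the floor. The mean count of Twist1 was 1242 with Adriamycin and 816 with vehicle, a ratio of 1.52. Of the genes tested in both tables, 23.7% had a higher ratio than Twist1. The median ratio over all these genes was 1.12.

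**Figure D3:**
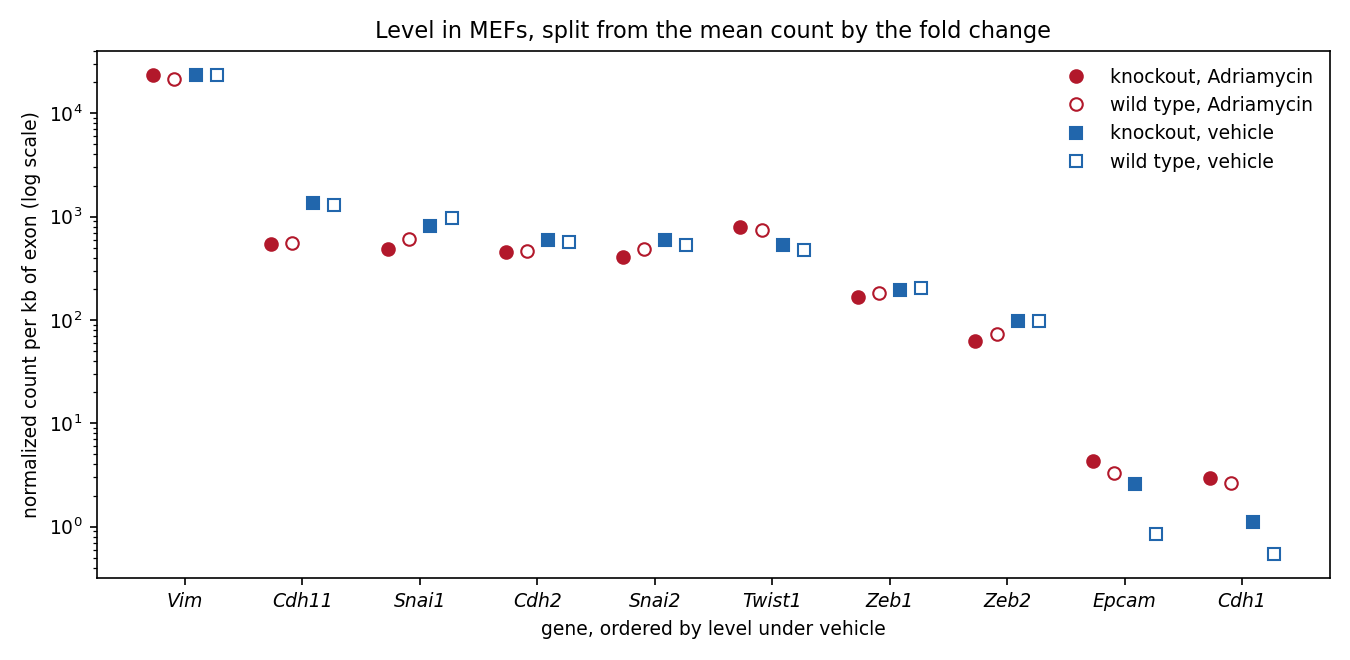
Normalized count per kilobase of exon (log scale, y axis) of the 10 genes in MEFs, as points for knockout and wild type with Adriamycin (circles) and vehicle (squares), obtained by splitting each mean count by the fold change and so without error bars. Knockout and wild type nearly coincide for Vim, Cdh11 and Cdh2, and Epcam and Cdh1 lie at the bottom.

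To compare the knockout effect between drug and vehicle, the MEF fold change with vehicle was subtracted from that with Adriamycin. Snai2 differed, at -0.42 ± 0.14 (SE; 95% interval -0.70 to -0.15), with an adjusted p of 0.0420 from a z test with Benjamini-Hochberg adjustment over 13973 genes. It was 1 of 8 genes tested, and 7.09% of all genes passed this test (3.49% above 0 and 3.61% below). Neither Snai2 fold change passed on its own, so a fall with Adriamycin and a rise with vehicle are not shown. The call ended when the difference was centred on its median over all genes (adjusted p 0.0567) and when z was divided by its robust SD (adjusted p 0.544); the alternatives gave adjusted p-values of 0.0410 to 0.544.

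The other 7 genes did not pass this test. Their differences ran from -0.21 ± 0.18 for Zeb2 to 0.16 ± 0.10 for Vim, with adjusted p between 0.404 and 0.917 (z test over all genes). For Cdh11 the 95% interval of the difference ran from -0.38 to 0.22 and for Snai1 from -0.41 to 0.29. These intervals may be too narrow, since z had a robust SD of 1.43 over all genes. An interaction as large as 0.5 is therefore not excluded. Cdh1 and Epcam, with no adjusted p in either table, had differences of -0.86 ± 0.82 and -1.20 ± 0.90.

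**Figure D4:**
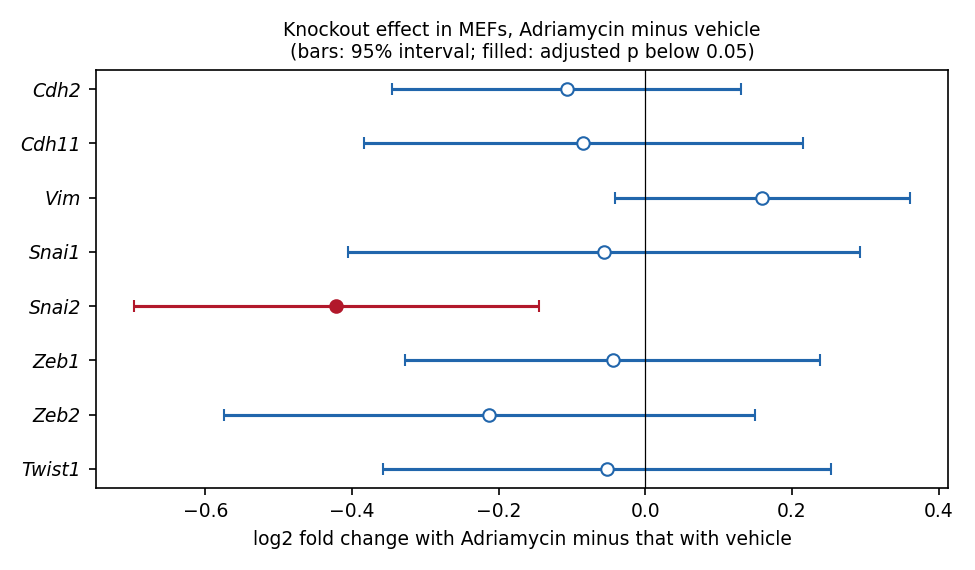
Difference of the knockout effect in MEFs, log2 fold change with Adriamycin minus that with vehicle (x axis), with 95% intervals, for the 8 genes with an adjusted p in both tables. The filled Snai2 point (-0.42) is the only 1 of the 8 with an adjusted p below 0.05.

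Podocytes and MEFs given Adriamycin can be set side by side only for genes listed in both. The podocyte change less the MEF change was 2.91 ± 0.17 (SE) for Cdh11 and 0.94 ± 0.11 (SE) for Cdh2. These differences are a description, since the podocyte table holds only genes already past a threshold: by a z test over 8842 such genes 79.3% passed (40.5% above 0 and 38.8% below). Cell type, knockdown against knockout and drug dose differ together here and cannot be told apart. With z divided by its robust SD over these genes, which left 2 of the 8842 genes past the threshold, neither Cdh11 (adjusted p 0.771) nor Cdh2 (adjusted p 0.928) passed. That SD was taken over genes picked for a change in podocytes, so this alternative cannot decide for Cdh11 or Cdh2. With vehicle no member had a row in the podocyte table, so 0 could be compared; of the 1897 genes that could, 55.9% passed (31.0% above 0 and 24.9% below).

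The catenins and junction proteins that cadherins bind were looked at next. In podocytes with Adriamycin 5 of 15 such genes rose and 4 fell, against 55.7% of all tested genes that passed. Vinculin (Vcl), which links catenins to actin, rose by 0.95 ± 0.04 and the adhesion gene Nectin2 (listed as Pvrl2) by 1.18 ± 0.10 in the authors' deposited table. Plakoglobin (Jup) fell to -1.10 ± 0.05 and Arvcf, a p120-like catenin, to -0.81 ± 0.05 on the log2 scale in the authors' deposited table. With vehicle 2 rose, Nectin3 (listed as Pvrl3, 0.81 ± 0.20) and Tjp1 (0.27 ± 0.10), and 0 fell in the authors' deposited table. Centred on the median of the listed genes, 0 were higher with vehicle, and centred on housekeeping genes 2 were higher and 0 lower. Both centres come from genes already past the threshold, so the balance under another scaling is not known.

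In MEFs, 5 of the 14 tested junction genes rose with Adriamycin and 1 fell, and 7 of 14 rose with vehicle and 0 fell. Over all tested genes 32.7% passed with Adriamycin and 37.5% with vehicle. Their median log2 fold change was 0.25 with Adriamycin and 0.15 with vehicle, against -0.02 and 0.01 over all tested genes. Jup rose by 0.75 ± 0.07 with Adriamycin and by 0.70 ± 0.10 with vehicle, and Arvcf by 1.51 ± 0.21 with vehicle, in the authors' deposited tables. Vcl fell with Adriamycin, at -0.60 ± 0.08 in the authors' deposited table. Jup and Vcl thus had opposite signs in podocytes and MEFs given Adriamycin, each past the threshold in both. With fold changes centred on housekeeping genes, 4 junction genes were higher and 4 lower in MEFs with Adriamycin, and 5 higher and 1 lower with vehicle.

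Of 18 E protein partners, ID proteins and other mesenchymal factors, 5 rose and 4 fell in podocytes with Adriamycin, and 4 rose and 0 fell with vehicle, against 55.7% and 14.3% of all tested genes that passed. With Adriamycin the authors' deposited table has the E proteins Tcf3 (0.53 ± 0.06) and Tcf12 (0.49 ± 0.08) higher, and Snai3 (-0.95 ± 0.09), another SNAI family gene, and Sox9 (-1.54 ± 0.19) lower. Id4 (1.23 ± 0.26), whose product blocks E proteins, and Foxc1 (0.43 ± 0.12) rose with vehicle in the authors' deposited table. Centred on the median of the listed genes, 1 factor was higher and 0 lower with vehicle, and centred on housekeeping genes 4 were higher and 0 lower. Both centres come from genes already past the threshold, so the balance under another scaling is not known.

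In MEFs 2 of the 17 tested factors rose and 8 fell with Adriamycin, and 2 rose and 2 fell with vehicle, against 32.7% and 37.5% of all tested genes that passed. Their median log2 fold change was -0.26 with Adriamycin and -0.10 with vehicle. The genes that fell with Adriamycin included all 4 ID genes: Id4 at -0.87 ± 0.14, Id2 at -0.50 ± 0.10, Id1 at -0.39 ± 0.09 and Id3 at -0.33 ± 0.10 in the authors' deposited table. Id1, Id2 and Id3 were chosen after their values were seen. Prrx1, a homeobox gene of limb mesenchyme, fell as well (-0.52 ± 0.09), while Sox9 (0.47 ± 0.12) and Snai3 (0.79 ± 0.21) rose in the authors' deposited table. Under vehicle Foxc2 (-0.54 ± 0.10) and Klf8 (-0.97 ± 0.22) fell, and Sox9 (0.75 ± 0.18) and Tbx3 (0.46 ± 0.12) rose in the authors' deposited table. Centred on housekeeping genes, 1 factor was higher and 11 were lower with Adriamycin, and 2 higher and 4 lower with vehicle.

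Epithelial genes split evenly in podocytes with Adriamycin, where 8 of 30 rose and 8 fell, against 55.7% of all tested genes that passed. Centred on housekeeping genes, 6 were higher and 8 lower. Keratin 8 (Krt8, 0.85 ± 0.06) rose, and the epithelial splicing regulator Esrp2 (-1.89 ± 0.08) and the tight junction receptor F11r (-1.01 ± 0.05) fell in the authors' deposited table. With vehicle 3 rose and 5 fell, among them Spint2 (0.68 ± 0.14), higher, and keratin 18 (Krt18, -0.82 ± 0.15), lower in the authors' deposited table. Centred on the median of the listed genes, 1 was higher and 5 lower, and centred on housekeeping genes, 3 were higher and 1 lower. Only 2 housekeeping genes were listed there, both lower, and all listed genes were already past the threshold. These centrings therefore cannot show how the balance depends on the scaling. Over all tested genes 14.3% passed with vehicle.

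In MEFs the epithelial list had 3 of 17 tested genes higher and 1 lower with Adriamycin, and 7 of 16 higher and 3 lower with vehicle, against 32.7% and 37.5% of all tested genes that passed. Their median log2 fold change was 0.25 with Adriamycin and 0.59 with vehicle. Centred on housekeeping genes, 3 were higher and 3 lower with Adriamycin, and 6 higher and 3 lower with vehicle. F11r rose by 0.75 ± 0.09 with Adriamycin and by 1.69 ± 0.17 with vehicle in the authors' deposited tables. Claudin 4 (Cldn4) rose by 2.19 ± 0.37 with Adriamycin, and the protease gene St14 by 2.44 ± 0.31 with vehicle, in the authors' deposited tables. Cdh3 (-0.36 ± 0.10) and Klf5 (-0.51 ± 0.15) fell with vehicle in the authors' deposited table. Of the 30 genes, 11 had a mean count under 10 with Adriamycin and 17 with vehicle. The summed level of the epithelial list was 14196 in knockout and 11108 in wild-type MEFs with Adriamycin, and 5283 in knockout and 4405 in wild-type MEFs with vehicle. Leukocyte markers moved in the same vehicle comparison: 6 of 9 rose, with a summed level of 4615 in knockout and 2314 in wild-type MEFs and none at 0, and their part in these values was not tested.

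Mesenchymal and fibroblast genes, the other side of the same list pair, moved both ways. In podocytes with Adriamycin 8 of 27 rose and 7 fell, with Acta2, smooth muscle actin, at 2.20 ± 0.07 and Tnc, tenascin C, at 1.66 ± 0.11, and Col5a1 at -1.86 ± 0.05 and Bmp1 at -1.39 ± 0.05 in the authors' deposited table. With vehicle 4 rose and 5 fell, with Sparc (0.84 ± 0.18) and Tnc (0.47 ± 0.12) higher and Ccn2 (listed as Ctgf, -0.85 ± 0.11) lower in the authors' deposited table. Centred on the median of the listed genes, 1 was higher and 5 lower with vehicle, and centred on housekeeping genes 4 were higher and 1 lower. Both centres rest on genes already past the threshold, the second on 2 genes, so the balance under another scaling is not known. The shares over all tested genes were 55.7% with Adriamycin and 14.3% with vehicle.

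In MEFs 3 of the 27 mesenchymal genes rose and 7 fell with Adriamycin, and 6 rose and 5 fell with vehicle, against 32.7% and 37.5% of all tested genes that passed. Their median log2 fold change was -0.05 with Adriamycin and -0.11 with vehicle. Lum, lumican, rose by 1.30 ± 0.23 with Adriamycin and by 2.42 ± 0.21 with vehicle in the authors' deposited tables. Acta2 fell to -0.64 ± 0.15 with Adriamycin and -0.34 ± 0.09 with vehicle, and Fbn1, fibrillin 1, to -0.46 ± 0.14 and -0.48 ± 0.12, in the authors' deposited tables. Centred on housekeeping genes, 2 were higher and 11 lower with Adriamycin, and 6 higher and 7 lower with vehicle.

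**Figure D5:**
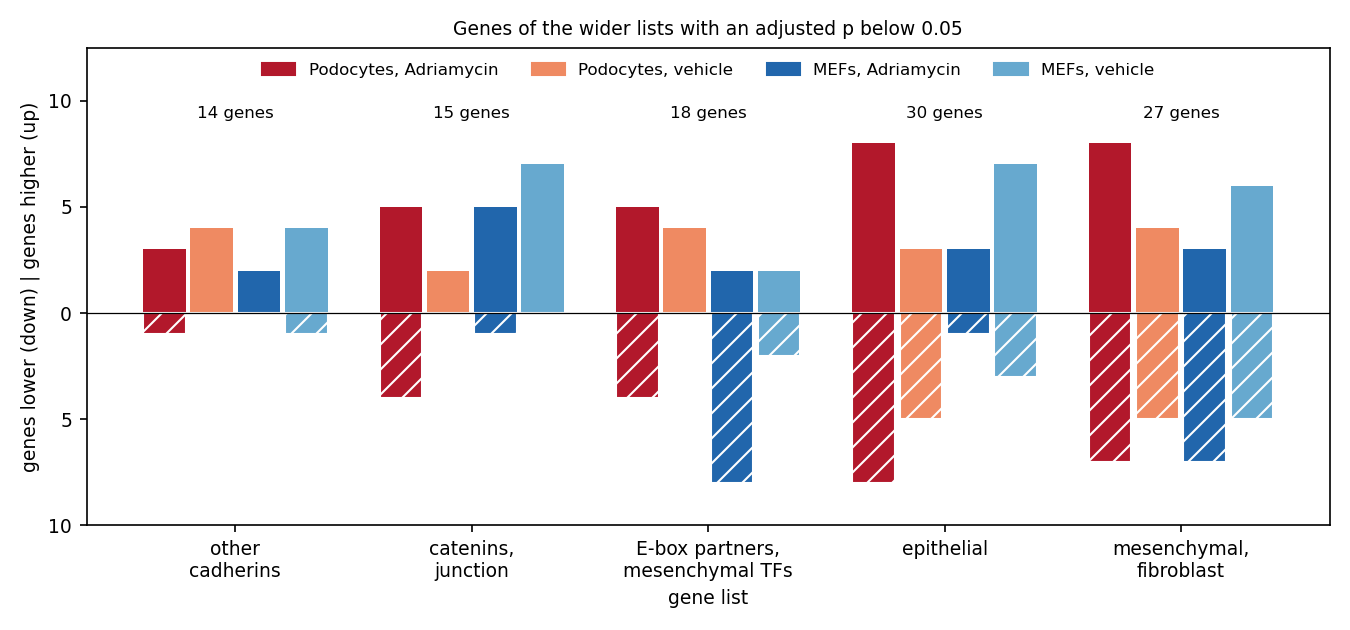
Number of genes with an adjusted p below 0.05 (y axis, higher drawn up and lower drawn down with hatching) in 5 gene lists for the 4 comparisons, with the list size above each group of bars. Epithelial genes (8 higher, 8 lower) and mesenchymal genes (8 higher, 7 lower) are split in podocytes given Adriamycin.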

How the data were processed

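RNA of 24 samples in 8 groups of 3 was sequenced after poly(A) selection, per the labels' protocols. The submitters' processing notes name the build GRCm38, DESeq2 1.4.1, by which the authors made the deposited comparisons, and featureCounts 1.4.5-p1 and TopHat2 2.0.13. The deposited values are the authors' 4 comparison tables: a signal (mean count after division by size factors), a log2 fold change, scores (its standard error and the Wald statistic) and p-values with Benjamini-Hochberg adjusted p-values. That version shrinks fold changes by default, and whether the authors kept this is not stated. An other cadherin gene with a mean count of 0.163 in MEFs with vehicle had a log2 fold change of 0.16 ± 0.32. An SE so small at such a count is what shrinkage gives. Fold changes near the floor, such as those of Cdh1 and Epcam in MEFs, may therefore be pulled towards 0. No column holds a value per sample, so depth is unknown and nothing was refitted.

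From these values were computed 95% intervals, each group's level (the mean count split by the fold change, 3 samples a side), counts per kilobase of GENCODE M21 exon, and z tests of differences between tables, tested on simulated data (Python 3.11.15, scipy 1.17.1). The simulated noise had exactly the deposited SEs. In the data, z had a robust SD of 1.43 for the drug difference in MEFs. The simulation thus does not show how the test behaves with such a spread. The number of genes tested in podocytes was recovered from p, adjusted p and rank. The same step on the called genes of MEFs with vehicle alone returned the number tested there. Genes with an adjusted p below 0.05 counted as changed. All 10 genes are reported; of each of 9 wider lists (145 distinct genes), up to 2 higher and 2 lower genes with the smallest adjusted p could be named per comparison. The members and lists were chosen with earlier results of these data known. Alternatives were other thresholds, adjustments, count filters and centrings. Some genes that this rule names are not reported here.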

Additional observations from a re-analysis of the deposited data

Results flagged for a closer look

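The effect of Mof knockout on Snai2 in MEFs differed between drug conditions, with a log2 fold change lower by 0.42 with Adriamycin than with vehicle (difference -0.42, z test); the call was lost under 3 of 4 alternatives. The change with Adriamycin in podocytes less that in MEFs was 2.91 for Cdh11 and 0.94 for Cdh2. Only genes past the threshold in podocytes could enter that z test and 79.3% of them passed, so the test does not show that the cell types differ. Neither gene passed with z divided by its robust SD, but that SD comes from the same picked genes and cannot decide either.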

How the results depend on the processing

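No paired analysis was possible because the tables hold no value per sample, and for the same reason no replicate could be left out. The call of 2 genes in podocytes with Adriamycin held under each of 5 alternatives run, of which both centrings were chosen after seeing the data. In MEFs with Adriamycin the count of 0 held under 6 of 7 alternatives. Some of these (a threshold of 0.01, a minimum fold and Bonferroni adjustment) can only remove calls, so a count of 0 could not move under them. The count became 6 when fold changes were centred on the housekeeping genes, whose median was 0.20. Snai1, Snai2, Zeb1, Zeb2, Cdh2 and Cdh11 then lay below 0, at -0.50 to -0.24. That centring turned Vim to -0.064 and Twist1 to -0.11 there, and Cdh11 to -0.011 with vehicle, none past the threshold. It moved the share of calls that were higher to 17.7% against 50.7% in MEFs with Adriamycin, and to 38.2% against 49.9% in podocytes with Adriamycin. Calls over all 14139 tested genes in MEFs with Adriamycin went from 4622 to 6044. In MEFs with vehicle the count of 0 became 1 (Snai1) with a minimum mean count of 10, and 1 with either centring. The count of 1 for the drug difference became 0 at a threshold of 0.01, 0 with z divided by its robust SD and 0 when centred, and stayed 1 with a minimum count; over all genes 991 calls became 486, 168 and 1056. The count of 2 for podocytes against MEFs became 0 with the robust SD, where 7010 calls over all genes became 2 (with vehicle, 1060 became 0). In podocytes with vehicle, where no member is listed, the share of calls that were higher ran from 24.7% to 94.1% over the centrings, against 60.7%. Both centres there come from genes already past the threshold, the housekeeping centre from 2 genes, so this range does not measure the scaling. The cause of these shifts was not tested.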
